A study of Mus musculus with 6 samples.

Results

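The genes described here encode the non-collagenous proteins of the tectorial membrane and the protein that anchors it. They are Tecta, Tectb, Otog, Otogl, Ceacam16 and Otoa, chosen by name for their known place in the gel, and they are 6 of the 48709 mouse genes in the deposited count table. All 6 were found in the table by Ensembl identifier, and all 6 passed the filter on low counts. RNA-seq of ribosome-depleted total RNA was carried out on cochleae of 3 knock-in mice, homozygous for an Hgf allele with a 10 bp deletion in intron 5 and a Neo selection cassette (Hgfdel10Neo/del10Neo), and of 3 wild-type littermates (Hgf+/+). The mice were 5 to 27 weeks old, and the sources used here do not give each mouse's age, so that age and genotype cannot be told apart for a gene that changes with age. Hgf encodes hepatocyte growth factor, and loss of its normal expression causes deafness in mice and in people.

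The tectorial membrane is an acellular gel that lies over the hair cells of the organ of Corti and transfers sound-driven motion to their hair bundles. Collagen fibrils run through it, embedded in a striated matrix built from the zona pellucida domain proteins alpha-tectorin and beta-tectorin together with CEACAM16. Otogelin and otogelin-like are large glycoproteins of the same gel and of the gels over the vestibular sensory epithelia, and otoancorin fastens the gel to the spiral limbus. In mice the tectorin RNAs are known to be abundant around birth and to decline as the ear matures, whereas Ceacam16 RNA is known to appear later and to persist.

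Knock-in libraries held 34437746, 28451570 and 24005234 mouse gene counts, and wild-type libraries 24144106, 29041493 and 42312291. The 6 genes together took 10951, 9534 and 6738 of these counts across knock-in libraries, against 6598, 8707 and 9432 across wild-type libraries. Values below are CPM, counts relative to the library's total after scaling by the trimmed mean of M values (TMM), and p-values come from edgeR's quasi-likelihood test with Benjamini-Hochberg adjustment over the 20733 genes tested. Hgf, the targeted gene, was at 10.1 ± 0.724 CPM in knock-in and 15.6 ± 0.572 CPM in wild-type cochlea (SD, n = 3 per group), without overlap and short of the threshold of 0.05 (edgeR adjusted p = 0.246). Reads of the Neo cassette numbered 71, 199 and 5 across knock-in libraries, against 5, 8 and 10 across wild-type libraries. The library labelled knock-in replicate 3 was therefore at the wild-type level of Neo. Its Dct, a pigment cell gene called lower in knock-in, was at 23.6 CPM, beside 19.3 and 24.4 CPM in the other knock-in libraries and 98.6 to 116.1 CPM across wild-type libraries. Fold changes of the tectorial membrane genes are given below with and without that library. Xist, an RNA of female cells, had 17489 counts in knock-in replicate 3 and 25380 in wild-type replicate 2, against 10 to 30 in the others. The Y-linked gene Ddx3y had 26 and 1 counts in these libraries, against 1963 to 3722 in the others. Both groups thus mixed libraries of the female and the male pattern, and Xist served as a covariate in a refit.

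None of the 6 genes was called in either direction. The fit called 2 of the genes tested higher in knock-in (0.00965%) and 5 lower (0.0241%). At an unadjusted p under 0.05, Ceacam16 and Otoa were higher and no member was lower, where 2.54% of all genes tested were higher and 1.96% lower at that cutoff. DESeq2, which called 0.0398% of its genes higher and 0.0531% lower, and edgeR on unfiltered counts, which called 0.135% higher and 0.0879% lower, called none of the 6. Neither did limma-voom or the authors' deposited table. The fold change was above 0 for 4 members (Otog, Ceacam16, Otoa and Otogl) and below 0 for the tectorin genes Tecta and Tectb. The median log2 fold change of the 6 was 0.21, beside 0.00 over all genes tested, and 50.2% of all genes tested had a fold change above 0.

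**Figure D1:**
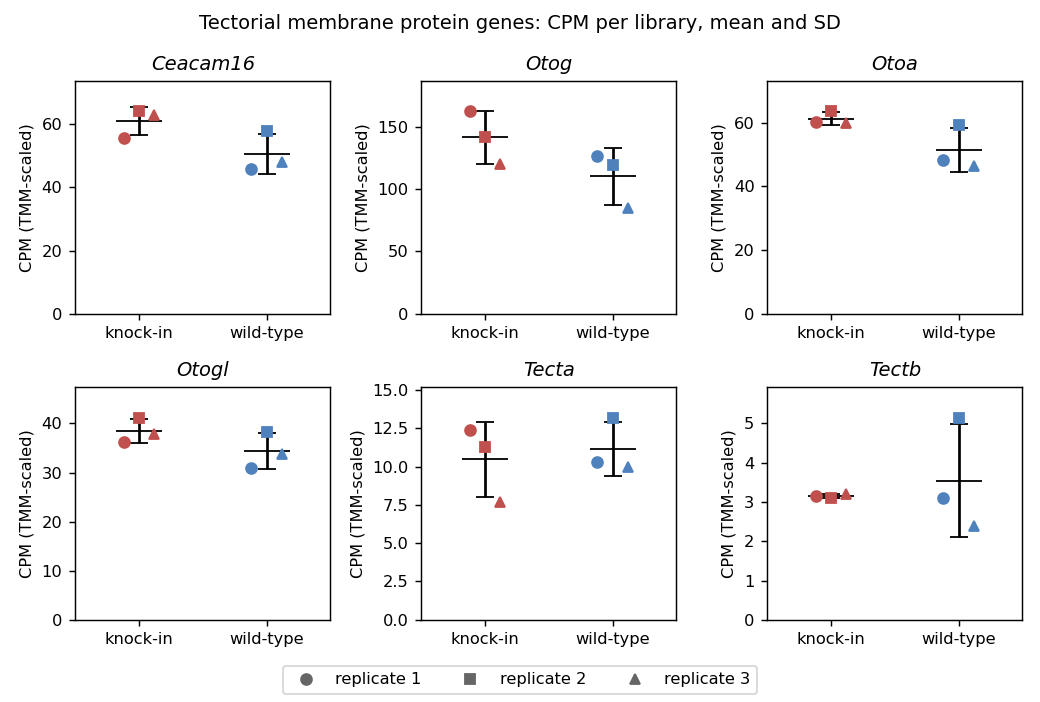
TMM-scaled CPM of each tectorial membrane gene (vertical axes, from 0) in the 3 knock-in and the 3 wild-type libraries, with symbols for replicates and black marks for the mean and SD. Otoa has its lowest knock-in library at 59.9 CPM and its highest wild-type library at 59.2 CPM, and the groups overlap for the other 5 genes.

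The tectorins come first, since they form the sheets of the matrix. Tecta (ENSMUSG00000037705), which encodes alpha-tectorin, spans 42329619 to 42399929 of chromosome 9 (reverse strand, GRCm38). It was at 12.4, 11.3 and 7.72 CPM across knock-in libraries, against 10.3, 13.2 and 9.94 CPM across wild-type libraries, from 178 to 416 counts per library. The groups overlapped, and knock-in replicate 3 was the lowest of all 6 libraries. The log2 fold change was -0.09 (SE 0.189; 95% interval -0.51 to 0.34; edgeR adjusted p = 0.984). Without knock-in replicate 3 it was 0.09 and without wild-type replicate 2 it was 0.05, so the sign rested on single libraries.

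Tectb (ENSMUSG00000024979), which encodes beta-tectorin, spans 55180733 to 55196313 of chromosome 19 (forward strand). It was at 3.14, 3.11 and 3.21 CPM across knock-in libraries, against 3.1, 5.15 and 2.39 CPM across wild-type libraries. The knock-in values were nearly equal, and the wild-type values lay on both sides of them. Its counts ran from 74 to 153 per library, and the knock-in libraries differed by a coefficient of variation of 1.65%, below the 10.6% that counting alone gives at this depth. In the wild-type libraries the coefficient was 40.4%, against 9.83% from counting. The log2 fold change was -0.16 (SE 0.27; 95% interval -0.77 to 0.44; edgeR adjusted p = 0.982), and single libraries moved it. It was 0.21 when wild-type replicate 2 was left out, -0.40 when wild-type replicate 3 was left out, and -0.18 without knock-in replicate 3. The interval corresponds to folds of 0.587 to 1.36.

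The start regions of 4 of the 6 genes were in the RefSeq promoter table of GRCm38.p6 and are shown because the levels that follow set the tectorin genes apart from Otog and Otoa. Each line gives the 150 bases before the annotated start, 5′ to 3′ on the gene's strand, with motif matches in capitals. The windows are chr9:42399948-42400097 on the reverse strand for Tecta, chr19:55180576-55180725 for Tectb, chr7:46240837-46240986 for Otog and chr7:121083274-121083423 for Otoa, the last 3 on the forward strand. The Tecta window belongs to the start at 42399947, and RefSeq lists another Tecta start at 42401690. The Otoa window belongs to the RefSeq start at 121083424. That window lies inside the GENCODE span of Otoa, which begins at 121081650.
Tecta: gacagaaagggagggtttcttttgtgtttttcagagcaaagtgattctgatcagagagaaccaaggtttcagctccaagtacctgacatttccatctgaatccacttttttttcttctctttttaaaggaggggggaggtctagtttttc
Tectb: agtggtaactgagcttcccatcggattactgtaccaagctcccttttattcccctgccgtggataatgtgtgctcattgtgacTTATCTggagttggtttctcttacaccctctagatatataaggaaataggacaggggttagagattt
Otog: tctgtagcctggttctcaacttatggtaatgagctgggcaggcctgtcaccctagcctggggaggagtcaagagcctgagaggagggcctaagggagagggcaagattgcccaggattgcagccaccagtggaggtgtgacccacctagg
Otoa: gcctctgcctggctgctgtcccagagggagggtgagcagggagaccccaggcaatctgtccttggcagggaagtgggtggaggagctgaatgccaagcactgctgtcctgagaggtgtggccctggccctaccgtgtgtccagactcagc
The motifs searched over the 250 bases before each start, on both strands, were the TATA box (TATAAA), the thyroid hormone receptor half-site (AGGTCA), the GATA motif (AGATAA or TGATAA) and the SOX motif (AACAAT). The capitals in Tectb are the GATA motif read from the opposite strand, 67 to 62 bases before the start, and 16.6% of 32851 promoters hold a GATA match in the same span. No other match to these exact letters was found in the 5 windows of these 4 genes. Looser forms of the motifs, such as the tatataag in the Tectb line, were not searched. The TATA box letters occur in 12.4% of all promoters, the half-site letters in 14% and the SOX letters in 9.42%. These matches describe letters in a window.

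Ceacam16 (ENSMUSG00000014686) encodes a secreted adhesion-family protein that binds the tectorin sheets, and spans 19852097 to 19861299 of chromosome 7 (reverse strand). It was at 55.8, 64.1 and 63.1 CPM across knock-in libraries, against 45.7, 57.8 and 48.2 CPM across wild-type libraries. Wild-type replicate 2 lay above the lowest knock-in library, and the other wild-type libraries lay below all knock-in libraries. The means were 61 ± 4.51 CPM in knock-in and 50.5 ± 6.41 CPM in wild-type cochlea (SD, n = 3 per group). This was a log2 fold change of 0.27 (SE 0.115; 95% interval 0.01 to 0.53). The unadjusted p was 0.0416 and the edgeR adjusted p was 0.966. Without knock-in replicate 3 the log2 fold change was 0.24.

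Ceacam16 shares exon sequence with Gm19345, a gene on the opposite strand, over 380 of its 1635 exon bases. Of its read-length windows of 93 bases, 12% also occur in a transcript of that gene. Gm19345 had 305 counts over the 6 libraries and Ceacam16 had 10053, and the sources used here do not state whether counting used strand. Reads in the shared stretch therefore cannot be told apart. For Tecta, 1.67% of such windows occur in the antisense gene Gm47629. For Tectb, Otog, Otogl and Otoa the share was 0%, so the related pair Otog and Otogl held no common stretch of read length.

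Otog (ENSMUSG00000009487) encodes otogelin, and spans 46240987 to 46311434 of chromosome 7 (forward strand). It was at 162.6, 142.1 and 120.2 CPM across knock-in libraries, against 126.8, 119.4 and 84.6 CPM across wild-type libraries. The groups overlapped, knock-in replicate 1 was the highest and wild-type replicate 3 the lowest. The log2 fold change was 0.36 (SE 0.165; 95% interval -0.01 to 0.73; edgeR adjusted p = 0.966), which was the largest of the 6. It was 0.20 without wild-type replicate 3, 0.26 without knock-in replicate 1 and 0.47 without knock-in replicate 3 or without wild-type replicate 1. In the authors' deposited table its unadjusted p was 0.036 and its adjusted p was 0.9997.

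Otogl (ENSMUSG00000091455) encodes otogelin-like, and spans 107760531 to 107912134 of chromosome 10 (reverse strand). It was at 36.3, 41.2 and 37.9 CPM across knock-in libraries, against 30.9, 38.2 and 33.8 CPM across wild-type libraries. Wild-type replicate 2 lay inside the knock-in range, and the other wild-type libraries were below it. The log2 fold change was 0.17 (SE 0.111; 95% interval -0.08 to 0.41; edgeR adjusted p = 0.966), and it was 0.17 without knock-in replicate 3 as well.

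Otoa (ENSMUSG00000034990) encodes otoancorin, the protein made by interdental cells where the gel meets the spiral limbus, and spans 121081650 to 121163097 of chromosome 7 (forward strand). It was at 60.2, 63.6 and 59.9 CPM across knock-in libraries, against 48.4, 59.2 and 46.5 CPM across wild-type libraries. The groups did not overlap, by the small gap between the lowest knock-in library and wild-type replicate 2, and 4.71% of all genes tested were likewise higher in every knock-in library, and 4.01% were lower in every one. Otoa was the only member of the 6 without overlap in CPM. The log2 fold change was 0.25 (SE 0.111; 95% interval 0.01 to 0.50), with an unadjusted p of 0.0458 and an edgeR adjusted p of 0.966. It was 0.27 without knock-in replicate 3 and 0.37 without wild-type replicate 2.

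Levels were compared between genes only per kilobase of annotated exon (the union of all exons). Ceacam16 was the highest, at 37.3 ± 2.76 CPM per kilobase in knock-in and 30.9 ± 3.92 in wild-type cochlea, followed by Otog at 13.7 ± 2.05 and 10.7 ± 2.18 CPM per kilobase (SD, n = 3 per group). Otoa was at 7.26 ± 0.239 CPM per kilobase in knock-in and 6.08 ± 0.809 in wild-type, and Otogl at 4.39 ± 0.283 in knock-in and 3.91 ± 0.421 in wild-type cochlea. The tectorin genes were the lowest. Tecta was at 1.41 ± 0.33 CPM per kilobase in knock-in and 1.51 ± 0.242 in wild-type, and Tectb at 0.825 ± 0.0136 in knock-in and 0.928 ± 0.375 in wild-type. Ceacam16 thus stood 26.2 to 48.2 times above Tectb per kilobase of exon union, depending on the library.

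Against 20669 genes tested with an annotated length, whose median was 3.05 CPM per kilobase, Ceacam16 was above 95.8% of genes, Otog above 85%, Otoa above 71.1% and Otogl above 57.9%. Tecta was above 34.3% and Tectb above 24.4%. By exon union the order was the same in all 6 libraries. The ranges of neighbouring genes in this order did not overlap, except those of Tecta and Tectb, where the lowest Tecta library (1.04 CPM per kilobase) was under the highest Tectb library (1.35). The place of Otoa rested on its length. Its 7 annotated transcripts cover 8439 exon bases together while the longest has 4347, and with the longest transcript as the length Otoa was at 13 CPM per kilobase, beside 12.5 for Otog. The level of Tectb also depended on its length, with 3820 exon bases in the union and 2725 in the longest transcript. With the longest transcript Tectb was at 1.23 CPM per kilobase, beside 1.47 for Tecta. The order within each library was not computed at that length.

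**Figure D2:**
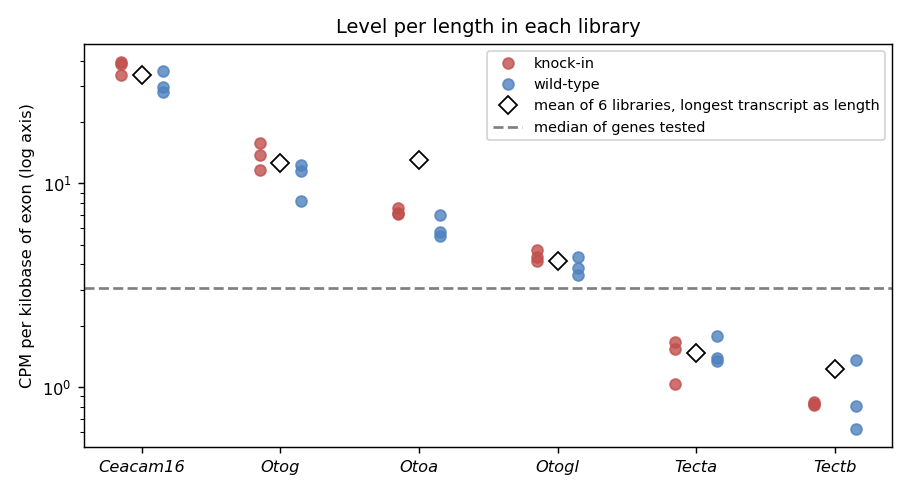
CPM per kilobase of exon union (log axis) for each gene in each library, with knock-in points left of wild-type points, diamonds for the 6-library mean with the longest transcript as length, and a dashed line at the median of genes tested (3.05). Ceacam16 lies highest and the tectorin genes lie below the line, and the diamond of Otoa lies close to that of Otog.

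The proportions among the 6 transcripts were then compared within each library, a measure that does not depend on sequencing depth. The shares rest on the exon union as the length. With the longest transcript Otoa had a 6-library mean of 13 CPM per kilobase in place of 6.67, and shares were not computed at that length. Otoa made up 11.2%, 11.2% and 11.2% of the summed level per kilobase across knock-in libraries, against 11.1%, 11.4% and 11.2% across wild-type libraries. The SD of its share was 0.0288 percentage points in knock-in cochlea, the smallest of the 6, and 0.152 in wild-type cochlea, where only Tecta was less spread (0.11). Counting alone gives the counts of Otoa a coefficient of variation of 2.41% in knock-in and 2.51% in wild-type libraries. The shares of Otoa thus lay closer together than counting error alone gives at this depth. Ceacam16 made up 57.5 ± 3.59% in knock-in and 57.3 ± 3.07% in wild-type (SD, n = 3 per group). Otog varied more, at 24.7%, 20.3% and 18.3% across knock-in libraries, against 23.7%, 18.8% and 16.7% across wild-type libraries. Tecta took 2.62%, 2.27% and 1.64% across knock-in libraries, against 2.7%, 2.91% and 2.74% across wild-type libraries. The gap between the groups was small (2.62% in knock-in and 2.7% in wild-type at the nearest), the CPM of Tecta overlapped, and the share also moves with the other 5 genes, of which Ceacam16, Otog, Otoa and Otogl had fold changes above 0.

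Ratios of CPM within a library were compared between libraries. They are not scaled by length and do not rank the genes. The ratio of Otoa to Ceacam16 was 1.08, 0.993 and 0.95 across knock-in libraries, against 1.06, 1.02 and 0.964 across wild-type libraries. The ratio of Otogl to Ceacam16 was 0.651, 0.643 and 0.6 across knock-in libraries, against 0.677, 0.661 and 0.701 across wild-type libraries, so that every knock-in library was lower. The exact permutation test of that difference gave p = 0.1 (two-sided, n = 3 per group), the smallest p that 3 against 3 allows, and 0.7 after adjustment over the 7 ratios computed. Both ratios had coefficients of variation near 5% over the 6 libraries (5.15% and 5.19%). The ratio of Otog to Ceacam16 was more spread, at 2.91, 2.22 and 1.9 across knock-in libraries, against 2.78, 2.07 and 1.76 across wild-type libraries, a coefficient of 20.8%. The ratio of Tecta to Tectb averaged 3.33 ± 0.816 in knock-in and 3.36 ± 0.796 in wild-type cochlea (SD, n = 3 per group).

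Over the 6 libraries, log2 CPM of Ceacam16 and Otogl had a Pearson's r of 0.95 (exact permutation p = 0.00278, adjusted 0.0417 over 15 pairs) and a Spearman's rho of 0.94 (exact permutation p = 0.0167, adjusted 0.25). Leaving out the 2 libraries farthest from the median of Ceacam16 gave an r of 0.77. Ceacam16 and Otoa had an r of 0.93 (exact permutation p = 0.0222, adjusted 0.111) and a rho of 0.77 (exact permutation p = 0.103, adjusted 0.51), and the r was 0.61 without the 2 farthest libraries. Tecta and Tectb had an r of 0.50 (exact permutation p = 0.286, adjusted 0.656) and a rho of 0.43 (exact permutation p = 0.419, adjusted 0.769). For this pair the r was 0.69 without the 2 libraries farthest from the median of Tecta. The other members did not follow Ceacam16 as closely. Its r was 0.43 with Otog, 0.36 with Tectb and -0.05 with Tecta (exact permutation p = 0.424, 0.501 and 0.926, adjusted 0.656, 0.656 and 0.926), and the rho was 0.20, 0.54 and 0.09 in the same order (exact permutation p = 0.714, 0.297 and 0.919, adjusted 0.892, 0.743 and 0.919). Without the 2 libraries farthest from the median of Ceacam16 these r were -0.38, -0.38 and -0.65. Of the 15 pairs, Ceacam16 with Otogl was the only pair with an adjusted p under 0.05 for r, and no pair had one for rho. All values of a library share its scaling, and groups of 3 were too small for values within a group. The coefficients and their permutation tests pool both groups, so a difference between groups that 2 genes share enters them.

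The genes closest in pattern to the 6 were sought among 14783 protein-coding genes with a mean of at least 1 CPM, by Pearson's r with the members' mean standardised log2 CPM over the 6 libraries. They were Irx5, an Iroquois homeobox transcription factor gene (0.978), Tmem64, a transmembrane protein gene (0.977), Fut9, a fucosyltransferase gene (0.975), Sorcs3, a sorting receptor gene (0.974), and Arhgap21, a gene for a GTPase-activating protein (0.974). Irx5 was at 17.4, 17.5 and 15.7 CPM across knock-in libraries, against 14, 16.9 and 12.5 CPM across wild-type libraries. Its lowest libraries were wild-type replicates 1 and 3, as for Ceacam16, Otoa and Otogl. With 6 libraries and so many candidates such values describe likeness and nothing more. None of the 5 was called (edgeR adjusted p = 0.966 to 0.986).

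The collagens of the tectorial membrane were set beside its non-collagenous proteins. None of 7 was called, 4 had a fold change above 0, and their median log2 fold change was 0.06. Col2a1, the fibrillar collagen of the gel and of cartilage, was at 200.1 ± 78.8 CPM in knock-in and 93.7 ± 44.4 CPM in wild-type cochlea (SD, n = 3 per group). This was a log2 fold change of 1.09 (SE 0.352; edgeR adjusted p = 0.966). Col9a3, which encodes a chain of a collagen on the fibril surface, was at 20.4 ± 2.06 CPM in knock-in and 15.5 ± 2.01 CPM in wild-type (SD, n = 3 per group), without overlap, and Col9a1, another chain, had a log2 fold change of 0.58. Col9a2 (-0.08), Col11a1 (0.06), Col11a2 (-0.07) and Col5a2 (-0.05) lay close to 0. The collagen genes are shared with the cartilage of the otic capsule. The cartilage list, 12 of 12 tested, had fold changes above 0 for all 12 and a median log2 fold change of 0.65, with Col10a1 at 3.71, Matn3 at 3.81 and Acan at 1.14, and edgeR called none of the 12 (adjusted p = 0.196, 0.282 and 0.966 for these 3). Col10a1 and Matn3 passed with DESeq2 (adjusted p = 0.00433 and 0.0115), and all 3 passed in edgeR without knock-in replicate 1 (adjusted p = 0.000275, 0.00255 and 0.0189) and on unfiltered counts. Its summed level was 515.5 to 896.2 CPM across knock-in libraries, against 432.8 to 615.4 CPM across wild-type libraries. With the cartilage list as a covariate the log2 fold changes were 0.02 for Ceacam16, 0.14 for Otoa, -0.02 for Otogl, 0.59 for Otog, 0.08 for Tecta and -0.38 for Tectb, each with a larger standard error (0.175 to 0.456).

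The genes listed for the attachment and coat of the hair bundle were also not called, with 4 of 5 above 0 and a median log2 fold change of 0.11. Strc encodes stereocilin, which links stereocilia to each other and to the gel. It was at 4.06 ± 0.737 CPM in knock-in and 2.98 ± 0.43 CPM in wild-type cochlea (SD, n = 3 per group; log2 fold change 0.45, SE 0.199, edgeR adjusted p = 0.966). Ptprq, a receptor phosphatase gene of the bundle shaft, had 0.13 and Adgrv1, a bundle link protein gene, had 0.11.

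**Figure D3:**
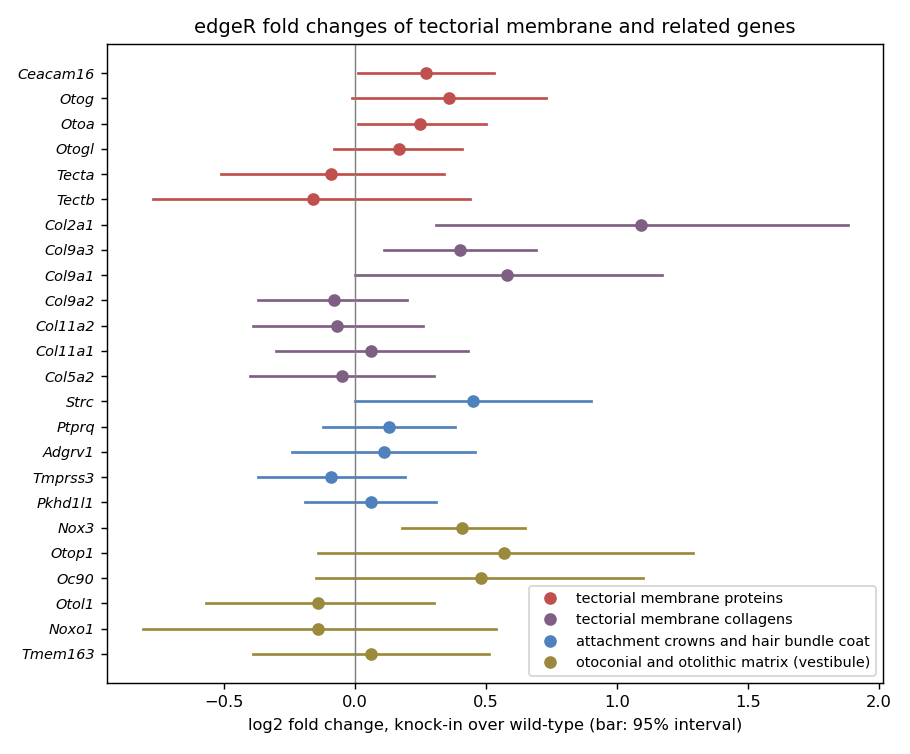
Log2 fold change of knock-in over wild-type (points) with 95% intervals (bars) from the edgeR fit, for the 6 tectorial membrane genes, 7 collagens, 5 genes listed for hair bundle attachment and coat, and 6 vestibular matrix genes. The tectorin intervals reach well to both sides of 0, and Col2a1 has the highest fold change, at 1.09.

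Several members are also genes of the vestibular gels, so markers of the otoconial layer were measured. None of the 6 markers tested was called, 4 had a fold change above 0 and the median log2 fold change was 0.24. Nox3, an oxidase gene needed to form otoconia, was at 68.1 ± 5.21 CPM in knock-in and 51.1 ± 4.25 CPM in wild-type cochlea (SD, n = 3 per group), without overlap, with a log2 fold change of 0.41 (SE 0.104; edgeR adjusted p = 0.966). Otop1, a proton channel gene of the macula, had 0.57, and Oc90, which encodes the main otoconial matrix protein, had 0.48 at levels under 1 CPM in every library. The summed level of the list was 78.7 to 86.3 CPM across knock-in libraries, against 59.5 to 69.8 CPM across wild-type libraries. Nox3 made up most of that sum in every library. Otop1 overlapped between groups, and Otol1, which encodes a collagen-like otoconial protein, and Noxo1, which encodes an organiser subunit of the Nox3 oxidase, each had a log2 fold change of -0.14. Both were named after their values were seen. The part of vestibular tissue in the values of Otog, Otogl and Tecta was not tested. In such bulk samples a change in the number of cells of a type and a change in RNA per cell cannot be told apart.

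Supporting cells, interdental cells and their neighbours make the gel, and a list of 19 supporting cell genes was used as a yardstick. None of the 19 was called, 10 had a fold change above 0, and the median log2 fold change was 0.00. Their summed level was 1389 to 1679 CPM in knock-in and 1479 to 1565 CPM in wild-type libraries. Slc1a3, a glutamate transporter gene of supporting cells, had 0.27, and Cdkn1b, a cell cycle inhibitor gene, had -0.29. Relative to the mean log2 CPM of this list, Ceacam16 was at 0.45, 0.53 and 0.48 across knock-in libraries, against 0.15, 0.32 and 0.18 across wild-type libraries. Otoa was at 0.56, 0.52 and 0.40 across knock-in libraries, against 0.23, 0.36 and 0.13 across wild-type libraries. Otogl was at -0.17, -0.11 and -0.26 across knock-in libraries, against -0.42, -0.27 and -0.33 across wild-type libraries.

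On that scale Ceacam16, Otoa and Otogl were higher in every knock-in library, where 5.02% of all genes tested were higher without overlap and 2.32% were lower, and the gap for Otogl was small. Otog and both tectorin genes overlapped on that scale too. Ceacam16, Otoa and Otogl varied together over the libraries, with a Pearson's r of log2 CPM of 0.89 to 0.95 between them. They therefore do not count as separate observations beside the share of all genes, and in CPM only Otoa was without overlap. Relative to the list, the differences between the group means were the same size as the fold changes above, at 0.27 for Ceacam16, 0.25 for Otoa and 0.16 for Otogl. With the list as a covariate in the edgeR fit, none of the 6 genes passed (adjusted p = 0.826 for Ceacam16 and 0.852 for Otoa).

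**Figure D4:**
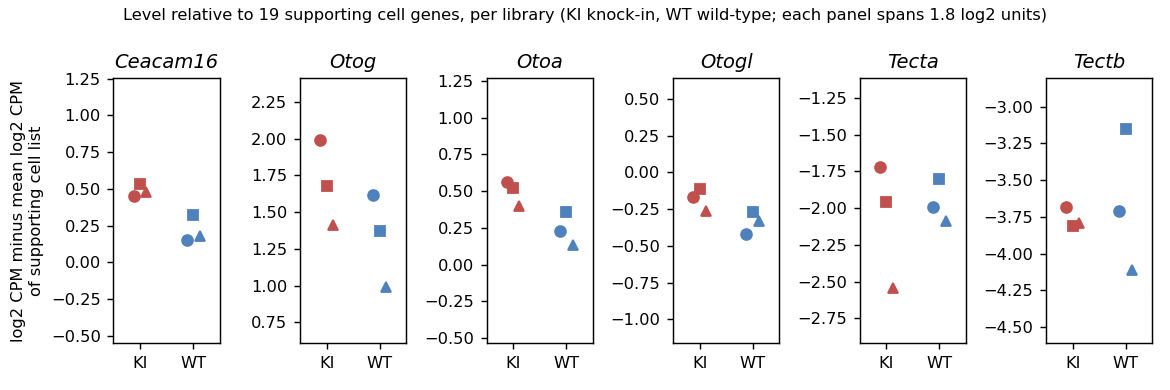
Log2 CPM of each gene minus the mean log2 CPM of 19 supporting cell genes (vertical axes, each spanning the same length) in the knock-in (KI) and wild-type (WT) libraries, with symbols for replicates as in the plot of CPM per library. The knock-in points of Ceacam16 (0.45 to 0.53) lie above its wild-type points (0.15 to 0.32), while the points of Otog, Tecta and Tectb interleave between groups.

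Hair cell genes were the second check on the sensory epithelium. Of 16 listed genes, 15 were tested, none was called, 9 had a fold change above 0 and the median log2 fold change was 0.01. Their summed level was 312.1 to 325.7 CPM in knock-in and 285.1 to 328.4 CPM in wild-type libraries. Myo6, named after its values were seen, was the largest part of that sum in every library, at 111.7 to 138.1 CPM. Cib2, which encodes a calcium-binding subunit of the transduction complex, had a log2 fold change of 0.48 without overlap between groups, Pcdh15, a tip link gene, had 0.41, and Pou4f3, a hair cell transcription factor gene, had -0.31. Thyroid hormone is known to control tectorin expression during development in rodents, and none of 7 genes of that axis was called, with a median log2 fold change of 0.01. Thrb, a thyroid hormone receptor gene, was at 29.7 ± 3.67 CPM in knock-in and 25 ± 3.82 CPM in wild-type cochlea (SD, n = 3 per group). Slco1c1, a thyroid hormone transporter gene, had a log2 fold change of -0.17 (SE 0.116), and Crym, which encodes a thyroid hormone-binding protein, had a log2 fold change of 0.29 (SE 0.228), each with an edgeR adjusted p of 0.966.

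Lists of other tissues of the sample were described by counts alone. Zona pellucida domain genes other than the tectorins had 6 of 12 members tested and a median log2 fold change of -0.13, with none called. Medians were 1.57 over 8 adipocyte genes, 0.06 over 9 bone genes, 0.04 over 6 strial marginal cell genes, 0.08 over 6 spiral ligament fibrocyte genes and -0.20 over 5 erythroid genes, with none called. The strial pigment cell list had 4 of 7 genes called lower and a median of -2.08. These were Dct (-2.25), Tyr (-2.32), Slc45a2 (-2.69) and Mlana (-2.08), all genes of pigment cells (edgeR adjusted p = 0.000179 to 0.0205). The adipocyte sum was 247.8 to 1339 CPM across knock-in libraries, against 134.8 to 256 CPM across wild-type libraries, and its part in the values of the tectorial membrane genes was not tested.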

How the data were processed

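The series' design text and the labels state that paired reads of 93 bases were mapped by the authors to GRCm38.vM11 with STAR, listed as 2.5.2 in the submitters' processing notes, and compared with DESeq2. How reads were assigned to genes, and on which strand, is not stated in the sources used here. The authors deposited whole-number counts per gene. Their deposited DESeq2 table holds a mean signal per gene, log2 fold changes and their errors, the test's score, and p-values. Of 48733 rows, 48709 were mouse genes, and the other 24, spike-ins and transgenes with 0.0015% to 0.0045% of counts, entered neither library sizes nor tests. Symbols came from GENCODE M21 on the same build (48349 identifiers matched).

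Here, edgeR 4.0.16 (R 4.3.3) was run on counts with filterByExpr, TMM scaling and group as the only term, two-sided. Standard errors were derived from the log2 fold change and its F value, and 95% intervals use the fit's degrees of freedom. Log2 CPM used a prior count of 2. DESeq2 1.42.0, limma-voom (limma 3.58.1), other scalings, filters and covariates, and leaving out each library were alternatives. The fit was tested on simulated data. No library was a repeat of another: the chi-square per degree of freedom over pairs of libraries, for genes with a mean count of at least 10, was 21 or more. Intervals cover the spread between libraries, and counting coefficients cover counting error only. Exact tests used scipy 1.17.1.

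The 6 genes, the 14 lists and the tests were chosen with earlier results of these data known. Named genes were Hgf, Dct, the 6 genes, the collagens, Strc, up to 3 genes per list with the smallest p or any past the threshold (of the lists described by counts, only genes past the threshold), and the 5 genes closest in pattern. A gene of the thyroid hormone list is not reported here and was left out of that list.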

Additional observations from a re-analysis of the deposited data

How the results depend on the processing

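None of the 6 tectorial membrane genes passed the threshold under any of 16 refits or at an adjusted p threshold of 0.1. Of their 96 refitted fold changes, 91 kept their direction and 5 turned. With the cartilage covariate, which holds Col2a1 itself, the log2 fold change was -0.02 for Otogl, 0.08 for Tecta, -0.23 for Col2a1, -0.43 for Col9a1, -0.27 for Col11a1, -0.22 for Acan, -0.02 for Ptprq, 0.04 for Cdkn1b, -0.05 for Slc1a3, -0.12 for Crym, -0.04 for Thrb and -0.0004 for Tmem64. The cause was not tested. Without single libraries the log2 fold change ran from -0.22 to 0.09 for Tecta, -0.40 to 0.21 for Tectb, -0.17 to 0.03 for Col9a2, -0.05 to 0.26 for Col11a1, -0.17 to 0.11 for Col11a2 and -0.16 to 0.12 for Col5a2. Ceacam16 (0.20 to 0.38), Otog (0.20 to 0.47), Otoa (0.18 to 0.37) and Otogl (0.10 to 0.25) kept their direction.

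Over all genes, 2 were called higher and 5 lower. DESeq2 called 12 and 16, the fit without a filter 46 and 30, and the cartilage covariate 1 and 1. The Xist covariate and the supporting cell covariate each called 4 higher. Without single libraries 0 to 13 were called higher and 2 to 8 lower, the most without knock-in replicate 1. Hgf passed with DESeq2 (adjusted p = 0.014) and without a filter (edgeR adjusted p = 0.038). The cartilage genes Col10a1 and Matn3 passed with DESeq2, and these and Acan passed without a filter (edgeR adjusted p = 9.14e-06, 8.63e-05 and 0.014) and without knock-in replicate 1. No paired analysis was possible because the labels do not match mice between the groups or give the litter of each mouse. The replicate numbers used here set no pairs, and litter was not in the model. Depth limits Tectb most, at 74 to 153 counts per library.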
